A study of Homo sapiens with 12 samples.

Results

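HCT116 is an established human colorectal carcinoma cell line. The account concerns its response to oligomycin A (OA), which was measured in 6 of the 12 libraries of the series, 3 from OA-treated cultures and 3 from cultures given the solvent DMSO. The labels alone place these libraries in the 2 groups. All 6 cultures were wild-type (WT) HCT116 cells in RPMI1640 medium with serum, were harvested at 24 h, and are labelled as biological replicates. According to the labels, OA was used at 5 µg/mL, whereas the methods of the study name a higher dose. The other 6 libraries, from cells given tunicamycin (TN) and from their own DMSO cultures, were used to set the change with OA beside the change with TN. They also entered an alternative fit of the change with OA, on all 12 libraries. Since all cultures are of 1 cell line, the groups describe that line and no other. In bulk RNA, fewer cells of a kind and less RNA per cell cannot be told apart.

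OA blocks the mitochondrial ATP synthase, so that electron transport in coupled mitochondria slows and cells depend on glycolysis for ATP. Mitochondrial defects of this kind are known to activate the integrated stress response (ISR), in which phosphorylated eIF2α lowers general protein synthesis while the transcription factor ATF4 is translated and induces genes of amino acid supply, tRNA charging, and secreted stress hormones. Proliferating cells that lack energy or amino acids also commonly leave the cell cycle, and transcripts of DNA replication and of the histones that package new DNA then decline. The transcripts encoded in mitochondria and a list of 67 interferon-stimulated genes (ISGs) were set aside, which left 14612 of the 14681 tested genes for description.

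The counts summed to between 17260193 and 24983573 in the DMSO libraries and to between 9884124 and 13719776 in the OA libraries, so low transcripts were counted less precisely with OA. The cell line was checked against epithelial and colorectal markers. Of 20 such markers, 10 had at least 1 count per 1000000 after scaling (CPM) in every library, and the summed level of the list was between 4342 and 6233 CPM with DMSO and between 5329 and 8585 CPM with OA. KRT8, KRT18, KRT19, and EPCAM were abundant, while 5 markers (CDX1, LGR5, CEACAM5, CEACAM6, and TFF3) were at 0 throughout. Of 14 leukocyte markers, none reached the level needed for testing, and their sum stayed at or below 1.35 CPM in every library. Of 13 fibroblast and endothelial markers, 2 were tested, and their sum was 2.49 to 3.51 CPM with DMSO and 7.74 to 15.9 CPM with OA, with COL1A1 the most abundant of them in every library. The part of these markers in the results was not tested. OA replicate 2 stood apart from the other OA libraries before any gene was examined. The noncoding RNA RN7SL1, a part of the signal recognition particle, took 17.9% of its counts, against 8.40% and 12.5% in OA replicates 1 and 3 and 6.02% to 8.11% with DMSO. Protein-coding genes took 74.9% of its counts, against 81.3% to 89.9% in the other 5 libraries.

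With OA, 405 genes rose and 253 fell of 14681 tested, which is 2.76% and 1.72% of all tested genes and 4.48% together (edgeR quasi-likelihood test, Benjamini-Hochberg adjusted p under 0.05). Outside the genes set aside, 401 rose and 252 fell. The median log2 fold change of the called genes was 2.01 for the rises and -1.65 for the falls, and 201 rises but 66 falls exceeded 4-fold. No called gene had an OA library within the range of the DMSO libraries, a separation that 31.8% of all tested genes had. Protein-coding genes made up 329 of the rises and 240 of the falls, and annotated long noncoding RNAs made up 47 of the rises and 7 of the falls. The number of calls leaned on single libraries. Without OA replicate 1 it was 730 higher and 449 lower, without OA replicate 2 it was 490 (3.16% of those tested) and 367 (2.37%), without OA replicate 3 it was 67 and 24, and without DMSO replicates 1, 2, or 3 it was 5, 3, and 3 higher with none lower. Of the genes not set aside, SPX and GDF15 passed in all 6 of these fits. Scaling to total counts gave 352 higher and 396 lower genes and shifted the median of all tested genes from -0.02 to -0.23, so that the lists below are to be read against that shift.

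The largest rises were ranked among genes with a mean of at least 10 CPM over the 6 libraries, which a gene could reach through OA libraries alone. All 10 were at low levels in DMSO-treated cells, at most 18 CPM in any DMSO library. Ranking by fold change under this floor favors such genes. LURAP1L (chr9:12775020-12823060 on hg38) was at 1.1, 0.593, and 0.661 CPM in DMSO replicates 1, 2, and 3 and at 54.9, 135, and 47.8 CPM in OA replicates 1, 2, and 3, a log2 fold change of 6.66 ± 0.57 (SE, adjusted p = 0.0057). All OA libraries were far above all DMSO libraries, and replicate 2 was the highest. LCN2 (chr9:128149071-128153453), a secreted iron-siderophore binding protein, was at 0.472, 1.54, and 0.0508 CPM with DMSO and 10.2, 156, and 9.75 CPM with OA (6.34 ± 1.45, adjusted p = 0.0494). UPP1 (chr7:48088628-48108736), the uridine phosphorylase that frees ribose from uridine, went from 9.96, 18, and 10.4 CPM to 143, 1288, and 150.0 CPM (5.36 ± 0.96, adjusted p = 0.0292). HKDC1 (chr10:69220332-69267552), a hexokinase family member, went from 0.891, 1.62, and 1.17 CPM to 13, 93.7, and 15 CPM (5.03 ± 0.86, adjusted p = 0.027). For LCN2, UPP1, and HKDC1, replicate 2 was far above the other OA libraries, and without it their log2 fold changes were 3.77, 3.50, and 3.48. The fatty acid ω-hydroxylases CYP4F3 and CYP4F11, neighbors on chromosome 19 whose similar sequences could share reads, rose by 4.85 ± 0.94 and 4.22 ± 0.89, with adjusted p = 0.0348 and 0.0403, and were 3.10 and 2.40 without OA replicate 2. CXCL8, the neutrophil chemokine interleukin 8, rose from 0.996, 0.474, and 1.02 CPM to 14.2, 35.4, and 9.75 CPM (4.58 ± 0.61, adjusted p = 0.0157). IL20RB, a subunit of the receptors for interleukins of the IL-20 family, and PRPH, the intermediate filament protein peripherin, rose by 4.01 ± 0.50 and 3.77 ± 0.65 (adjusted p = 0.0157 and 0.027). Without OA replicate 2, the log2 fold changes of LURAP1L, CXCL8, IL20RB, and PRPH were 6.04, 3.88, 3.47, and 2.76. DESeq2, run as an alternative fit, gave no result for LCN2, UPP1, and CYP4F11. With scaling to total counts, LCN2 did not pass (adjusted p = 0.0649).

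Among genes of at least 10 CPM, the largest falls were mostly of histone and cell cycle genes. H2BC13 (chr6:27807479-27807929) and H2BC14 (chr6:27815022-27815489), which encode H2B histones in the cluster of chromosome 6, were at 194, 276, and 269.7 CPM and 157, 231, and 233 CPM with DMSO and at 13.1, 14.9, and 31.6 CPM and 14.8, 9.28, and 32.1 CPM with OA. Their log2 fold changes were -3.64 ± 0.40 and -3.47 ± 0.48 (adjusted p = 0.0116 and 0.0168), falls of 12.4-fold and 11.1-fold. H3C12, H2AC4, and H2BC7 of the same chromosome changed by -2.75 ± 0.41, -2.72 ± 0.40, and -2.68 ± 0.36. Near-identical histone copies could share reads, so values of single histone genes are uncertain. CCNE2, the cyclin E2 that drives entry into S phase, was at 58, 18.1, and 43.1 CPM with DMSO and 7.01, 2.59, and 4.98 CPM with OA (-3.02 ± 0.53, adjusted p = 0.0271). MCM4, a subunit of the replicative helicase, was at 516, 481, and 481 CPM with DMSO and 93.7, 35.5, and 118 CPM with OA (-2.58 ± 0.42, adjusted p = 0.0242). TMSB15A, an actin-sequestering β-thymosin, and ERCC6L, a mitotic DNA translocase, fell 8.15-fold and 7.67-fold (-3.03 ± 0.55 and -2.94 ± 0.63, adjusted p = 0.0301 and 0.0423). DKK1, a secreted Wnt antagonist, was at 128, 163, and 124 CPM with DMSO and 29.4, 9.48, and 36 CPM with OA (-2.47 ± 0.46, adjusted p = 0.0317). In 6 of these 10 genes, OA replicate 2 was the lowest library.

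**Figure D1:**
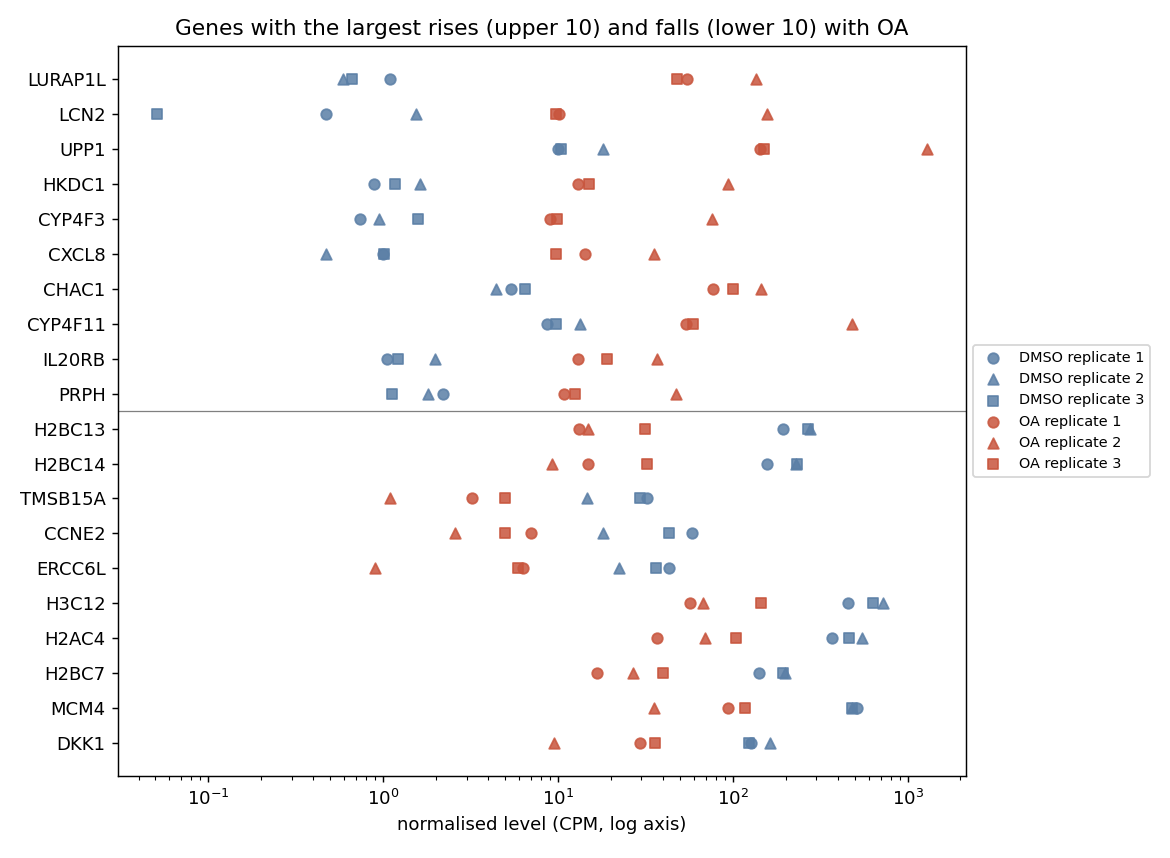
Normalized level in CPM, on a log axis, of the 10 genes with the largest rises and the 10 with the largest falls, with 1 symbol for each library (blue, DMSO; red, OA). The red and blue symbols of a gene do not overlap, and the red triangles of OA replicate 2 are the farthest from the blue symbols for all 10 rises.

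Genes of the ISR and of amino acid supply rose in part of each list and fell in almost none. Of 21 tested transcription factors and regulators of the ISR, 8 rose and 0 fell, with a median log2 fold change of 0.97 against -0.02 over all tested genes. CHAC1, a glutathione-degrading enzyme, was at 5.4, 4.43, and 6.46 CPM with DMSO and 77, 146, and 101 CPM with OA (4.31 ± 0.35, adjusted p = 0.00437). TRIB3, a pseudokinase that binds ATF4, went from 62.9, 107, and 73.7 CPM to 431, 1068, and 557 CPM (3.08 ± 0.41, adjusted p = 0.0157). CEBPB, a partner of ATF4 on DNA, rose by 2.21 ± 0.37 (adjusted p = 0.025). ATF4 itself rose by 1.38 ± 0.25, PPP1R15A, which directs the dephosphorylation of eIF2α, by 3.54 ± 0.76, and ATF3 by 3.49 ± 0.65 (adjusted p = 0.028, 0.0428, and 0.0313). SESN2, a leucine sensor that restrains mTORC1, was the only 1 of 14 restrainers of mTORC1 and of cap-dependent translation to pass the test, and it went from 13.9, 14.5, and 16.4 CPM to 99.8, 286, and 117 CPM (3.49 ± 0.44, adjusted p = 0.0157). The 14 had a median of -0.02, which was 0.04 without DMSO replicate 2 and 0.05 without OA replicate 1.

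Of 22 amino acid transporters, 7 rose and none fell, with a median of 0.34. The glycine transporter SLC6A9 was at 1.26, 2.25, and 2.24 CPM with DMSO and 8.48, 14.9, and 11.7 CPM with OA (2.6 ± 0.39, adjusted p = 0.0207). SLC1A4, a carrier of small neutral amino acids, rose by 1.99 ± 0.30 (adjusted p = 0.0212). Both chains of the leucine exchanger rose, SLC7A5 by 1.74 ± 0.30 and SLC3A2 by 2.12 ± 0.41 (adjusted p = 0.027 and 0.0351), as did SLC7A11, the cystine exchanger that shares SLC3A2, by 2.41 ± 0.48 (adjusted p = 0.0365). Of 16 enzymes of asparagine, proline, transsulfuration, and transaminase steps, 4 rose and none fell, with a median of 0.35. ASNS, which makes asparagine, went from 1.78, 2.65, and 4.17 CPM to 27.4, 22.8, and 23 CPM (3.09 ± 0.37, adjusted p = 0.0149). GOT1, the cytosolic aspartate transaminase, rose by 2.0 ± 0.41, ASS1, the argininosuccinate synthase, by 1.51 ± 0.23, and GPT2, a mitochondrial alanine transaminase, by 1.11 ± 0.25 (adjusted p = 0.0393, 0.0219, and 0.04995).

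The list of serine, glycine, and one-carbon enzymes was split. PHGDH, the first enzyme of serine synthesis, rose from 115, 116, and 127 CPM to 265, 282, and 410.4 CPM (1.42 ± 0.25, adjusted p = 0.0275). SHMT1, the cytosolic enzyme that moves a carbon unit from serine to folate, fell from 53.7, 65.1, and 60.9 CPM to 16.4, 24.7, and 30.9 CPM (-1.32 ± 0.29, adjusted p = 0.0464). The other 14 of 16 did not pass, and the median was 0.38. With scaling to total counts, PHGDH did not pass (1.22, adjusted p = 0.0508), and the list held 0 rises and 2 falls. Of 20 cytosolic aminoacyl-tRNA synthetases, 5 rose and none fell. SARS1, AARS1, and CARS1, which charge the tRNAs of serine, alanine, and cysteine, rose by 1.69 ± 0.26, 1.58 ± 0.27, and 1.4 ± 0.26 (adjusted p = 0.0219, 0.0268, and 0.0317), as did WARS1 and GARS1 by 1.85 ± 0.42 and 1.09 ± 0.21 (adjusted p = 0.0471 and 0.0332). In the cytosolic list 9 members had a fold change below 0. Its median was 0.06, and was -0.06 when scaled to total counts, 0.30 without OA replicate 2, and 0.31 with an offset for GC content. None of 17 mitochondrial synthetases passed, and their median was -0.51. The lowest p among them was that of MARS2, with 31.1, 30.2, and 31.7 CPM under DMSO and 16.1, 11.8, and 16.1 CPM under OA (-1.08 ± 0.25, adjusted p = 0.052). With the offset for GC content, 1 of the 17 passed as higher and 4 as lower, where 8.51% and 7.57% of all genes did.

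ATF4 acts with C/EBP factors on composite sites whose core can be written TGATGNAA (N is any base). These letters were searched on both strands of the promoter windows of RefSeq (GRCh38.p14), 250 bases before to 50 after a gene's start. A window was found for 275 of the 401 called rises, and 16 of these (5.82%) held a match. The share was 2 of 199 (1.01%) for the called falls, 150 of 9943 (1.51%) for tested genes that were not called, and 3.67% of all 27305 windows. Among cytosolic aminoacyl-tRNA synthetases, 6 of 16 windows held a match (AARS1, CARS1, IARS1, MARS1, NARS1, and TARS1, of which AARS1 and CARS1 were called). A match was in 3 of 18 windows of ISR factors, 4 of 20 of amino acid transporters, 2 of 10 of amino acid enzymes, and 1 of 12 of serine and one-carbon enzymes. None of the 12 windows of hormones and growth factors, the list with the highest median, and none of the 34 of DNA replication genes held one. A match describes the letters only. The windows of the 4 called genes of ISR factors, amino acid enzymes, and transporters with a match and the lowest p are shown because their values are among those given above. They are CHAC1 (chr15:40953221-40953520, plus strand), ASNS (chr7:97872359-97872658, minus strand), ATF3 (chr1:212565157-212565456, plus strand), and SLC3A2 (chr11:62881449-62881748, plus strand), each read 5′ to 3′ in the direction of transcription with the match in capitals.
CHAC1: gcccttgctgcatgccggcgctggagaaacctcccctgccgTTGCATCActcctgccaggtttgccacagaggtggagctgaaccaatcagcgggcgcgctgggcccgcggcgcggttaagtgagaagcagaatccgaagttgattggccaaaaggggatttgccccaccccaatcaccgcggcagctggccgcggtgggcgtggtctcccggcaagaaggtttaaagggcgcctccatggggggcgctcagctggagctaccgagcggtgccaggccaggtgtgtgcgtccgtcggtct
ASNS: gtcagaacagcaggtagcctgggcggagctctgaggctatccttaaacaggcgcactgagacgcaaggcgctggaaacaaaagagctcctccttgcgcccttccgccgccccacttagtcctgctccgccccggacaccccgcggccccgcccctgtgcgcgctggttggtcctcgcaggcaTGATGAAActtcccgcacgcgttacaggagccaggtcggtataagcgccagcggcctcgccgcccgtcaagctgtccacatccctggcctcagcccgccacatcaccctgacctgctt
ATF3: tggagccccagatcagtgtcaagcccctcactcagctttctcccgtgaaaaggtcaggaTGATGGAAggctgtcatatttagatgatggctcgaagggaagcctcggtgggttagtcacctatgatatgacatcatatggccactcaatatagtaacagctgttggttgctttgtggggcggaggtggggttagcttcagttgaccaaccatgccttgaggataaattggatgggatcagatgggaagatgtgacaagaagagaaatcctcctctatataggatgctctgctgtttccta
SLC3A2: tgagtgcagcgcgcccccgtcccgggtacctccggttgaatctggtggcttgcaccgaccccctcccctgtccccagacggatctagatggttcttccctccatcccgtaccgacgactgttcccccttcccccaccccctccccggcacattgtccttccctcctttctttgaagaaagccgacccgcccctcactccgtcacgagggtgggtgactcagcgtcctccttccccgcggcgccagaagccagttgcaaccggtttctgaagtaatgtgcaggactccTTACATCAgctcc
The match in CHAC1 begins 209 bases before the start and lies on the opposite strand, that in ASNS begins 68 bases before it, and that in ATF3 begins 191 bases before it. In SLC3A2, the match lies after the start and on the opposite strand.

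Secreted factors formed the list with the highest median. The lists were chosen with earlier results of these data known, so their ranks and shares of calls describe the chosen members only. Of 14 stress hormones and growth factors, 10 rose and none fell, with a median of 2.18. SPX, the peptide hormone spexin, had the lowest p of all tested genes and went from 0.157, 0.237, and 0.203 CPM to 14.6, 14.3, and 9.44 CPM (5.93 ± 0.42, adjusted p = 0.00219). The 3 OA libraries lay close together and the DMSO libraries were close to 0. GDF15, a circulating hormone of mitochondrial stress, was at 78.3, 64.9, and 90.3 CPM with DMSO and 932, 794, and 958 CPM with OA (3.52 ± 0.25, adjusted p = 0.00219). VGF, a precursor of secreted neuropeptides, went from 7.29, 8.77, and 9.0 CPM to 86.9, 63.3, and 50.8 CPM (3.0 ± 0.30, adjusted p = 0.010). STC2, a stanniocalcin, rose by 3.08 ± 0.42 and ADM2, an adrenomedullin family peptide, by 2.81 ± 0.49 (adjusted p = 0.0168 and 0.0271). The EGF receptor ligands AREG and HBEGF rose by 2.37 ± 0.31 and 2.11 ± 0.43 (adjusted p = 0.0157 and 0.0384). Unlike in the 10 largest rises, OA replicate 2 was the highest OA library for 5 of the 14 and the lowest for 5.

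Some antioxidant and metal-binding genes rose, while most members of these lists did not pass the test. Of 29 targets of NRF2, the transcription factor of the oxidant response, 7 rose and none fell, with a median of 1.17. ABCC3, an exporter of conjugates, went from 9.96, 9.29, and 10.3 CPM to 59.8, 90.6, and 54.5 CPM (2.79 ± 0.29, adjusted p = 0.0107). GCLC, the catalytic subunit for glutathione synthesis, went from 99.7, 66.2, and 90.7 CPM to 398, 517, and 298 CPM (2.24 ± 0.29, adjusted p = 0.0157). TXNRD1, a thioredoxin reductase, rose by 1.38 ± 0.21 (adjusted p = 0.0219). SRXN1, which restores oxidized peroxiredoxins, rose by 4.32 ± 0.84 and OSGIN1 by 3.48 ± 0.78 (adjusted p = 0.0351 and 0.0471). Heme oxygenase HMOX1 did not pass (4.26 ± 1.04, adjusted p = 0.0589), with OA libraries at 92.1, 1609.9, and 159 CPM and DMSO libraries at 26.3, 36.6, and 34.4 CPM. All OA libraries lay above the DMSO libraries, but they differed greatly among themselves, and without OA replicate 2 the change was 1.93 and passed (adjusted p = 0.0138), as it did with an offset for GC content (adjusted p = 0.0225) and with DESeq2 (adjusted p = 0.0052). Of 8 metallothioneins and zinc exporters, 3 rose (MT2A by 2.16 ± 0.37, MT1E by 2.34 ± 0.42, and MT1X by 3.06 ± 0.58, with adjusted p = 0.027, 0.0296, and 0.0323), and these short genes are similar enough to share reads. Without OA replicate 2, their log2 fold changes were 1.65, 1.73, and 2.12. Of 38 autophagy and lysosome genes, 5 rose and none fell, with a median of 0.24. They included the cargo receptor SQSTM1, which went from 464, 594, and 493 CPM to 1975, 7634, and 2472 CPM (2.96 ± 0.52, adjusted p = 0.0275), and the membrane conjugates MAP1LC3B (2.52 ± 0.39, adjusted p = 0.0219) and GABARAPL1 (1.86 ± 0.34, adjusted p = 0.0301).

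In the lists of signal-responsive and adhesion genes, part of the members rose. Of 29 immediate early and AP-1 genes, 10 rose and none fell, with a median of 1.04. The transcription factor KLF4 was at 4.72, 5.69, and 5.29 CPM with DMSO and 27.1, 25.4, and 20.3 CPM with OA (2.21 ± 0.27, adjusted p = 0.0157). ZFP36, which speeds the decay of AU-rich mRNAs, rose by 2.08 ± 0.27, and DUSP5, a phosphatase of ERK, by 2.5 ± 0.37 (adjusted p = 0.0157 and 0.0212). JUN rose by 2.63 ± 0.44 and FOS by 1.43 ± 0.32 (adjusted p = 0.026 and 0.047). Of 18 NF-κB targets and chemokines, 5 rose and none fell, with a median of 1.62 (1.02 without OA replicate 2). Besides LCN2 and CXCL8, they were CXCL2, CXCL3, and ICAM1. CXCL2 went from 0.629, 0.632, and 0.508 CPM to 4.42, 10.8, and 7.05 CPM (3.63 ± 0.45, adjusted p = 0.0157), and CXCL3 went from 0.419, 0.316, and 0.559 CPM to 2.88, 15.4, and 3.42 CPM (4.05 ± 0.76, adjusted p = 0.0317), so both remained low transcripts. Of 30 genes of epithelial junctions and adhesion, 8 rose and none fell, with a median of 0.43. The integrin ITGA3 was at 128, 172, and 145 CPM with DMSO and 516, 748, and 503 CPM with OA (1.99 ± 0.26, adjusted p = 0.0157). The integrin ITGB4 and the laminin chain LAMB3 also rose, by 1.38 ± 0.23 and 3.04 ± 0.61 (adjusted p = 0.027 and 0.0365). The claudin CLDN4 rose by 1.59 ± 0.23 (adjusted p = 0.0204), and the E-cadherin CDH1, a marker of the line, by 1.81 ± 0.31 (adjusted p = 0.0271). Of 11 tested markers of the line, 2 rose and none fell, with 7 above 0 and 4 below it. The marker CDX2 was at 13.7, 15.6, and 15.7 CPM with DMSO and 7.3, 11.5, and 7.78 CPM with OA. Of 20 growth factor receptors and insulin receptor substrates, the co-receptor NRP1 and the adaptor IRS2 rose (3.04 ± 0.37 and 1.72 ± 0.36, adjusted p = 0.0156 and 0.0405) and FGFR3 fell (-1.65 ± 0.38, adjusted p = 0.0495).

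**Figure D2:**
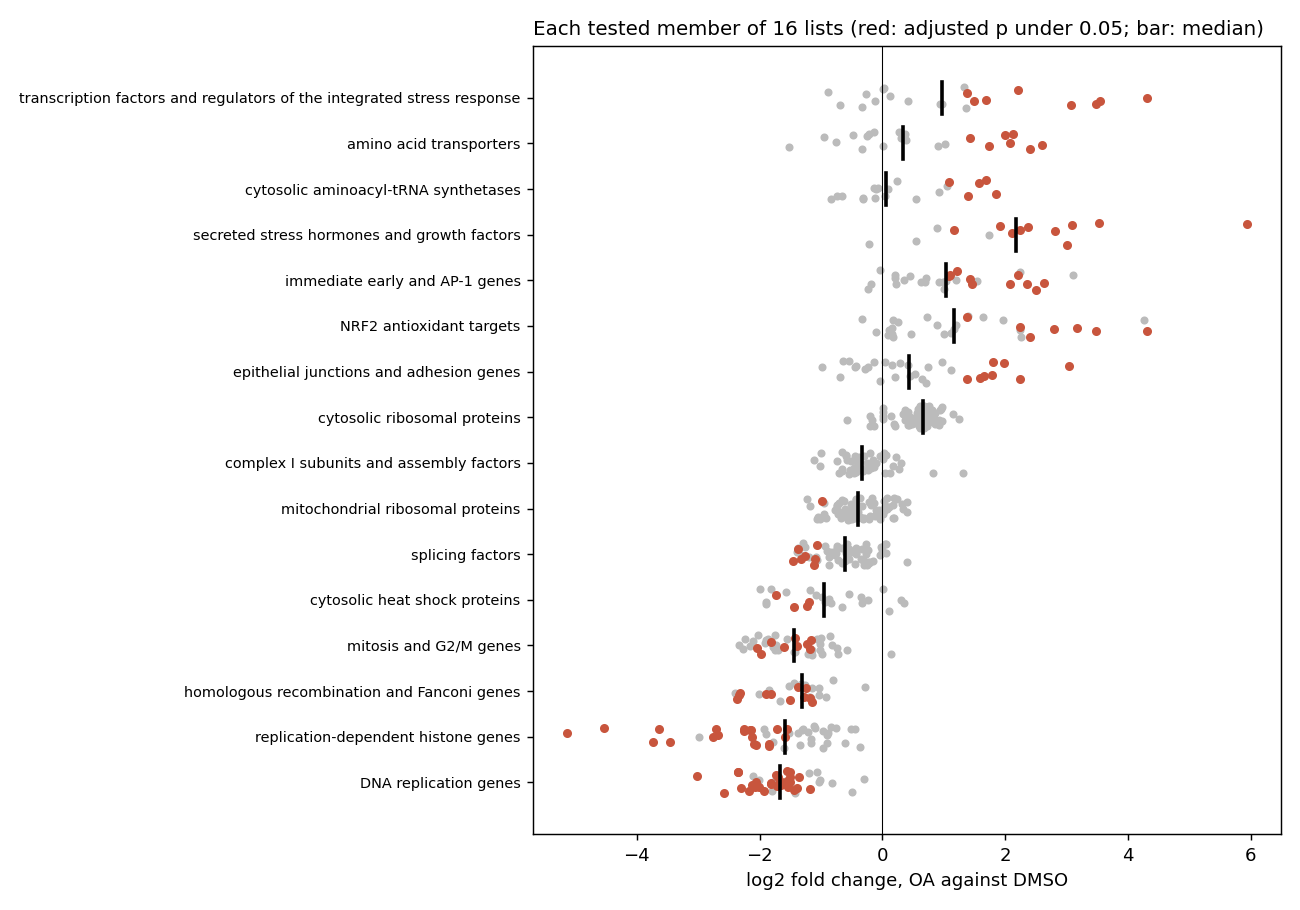
Log2 fold change of every tested member of 16 gene lists, with genes past the adjusted p of 0.05 in red, the rest in gray, and the median of each list as a black bar (vertical scatter has no meaning). Red points lie on the right for the ISR, amino acid, hormone, early gene, antioxidant, and junction lists and on the left for the histone, replication, repair, mitosis, heat shock, and splicing lists.

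In the lists of the endoplasmic reticulum (ER), of cell death, and of p53, some members rose and most did not pass the test. Of 25 ER chaperones, folding enzymes, and unfolded protein response targets, 4 rose, and 24 had a fold change above 0, with a median of 0.97 (0.47 without OA replicate 2). The called members were the sensor ERN1 (1.87 ± 0.33, adjusted p = 0.0271) and HSPA5, ATF6, and XBP1. Of 18 genes of ER-associated degradation, EDEM1 and HERPUD1 rose (1.47 ± 0.30 and 2.15 ± 0.46, adjusted p = 0.0369 and 0.0418), with a median of 0.64. Of 17 death receptor genes and caspases, TNFRSF10B and the inflammatory caspase CASP4 rose (2.4 ± 0.34 and 1.68 ± 0.33, adjusted p = 0.0189 and 0.0352), and of 17 BCL2 family genes, the BH3-only genes BBC3 and HRK rose. Of 24 p53 targets, 4 rose, among them the cyclin-dependent kinase inhibitor CDKN1A, from 104, 136, and 128 CPM to 284, 869, and 367 CPM (2.05 ± 0.42, adjusted p = 0.0396). GADD45A and PLK3 rose by 2.05 ± 0.25 and 1.72 ± 0.34 (adjusted p = 0.0157 and 0.0359). The p53 list as a whole had a median of 0.03, with as many members above 0 as below it.

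In the fit behind these calls, DNA replication was the list with the most falls. The histone list had more with scaling to total counts (31 against 27) and with a replicate block (41 against 39). Of 41 replication genes, 29 fell, none rose, and all 41 had a fold change below 0, with a median of -1.66. RRM2, a subunit of ribonucleotide reductase, was at 395, 424, and 397 CPM with DMSO and 91, 85.2, and 115 CPM with OA (-2.06 ± 0.23, adjusted p = 0.0116). All OA libraries were far below the lowest DMSO library. MCM10, which activates the helicase, went from 123, 118, and 123 CPM to 21.2, 18.5, and 32.1 CPM (-2.35 ± 0.28, adjusted p = 0.0149). RFC5, a subunit of the clamp loader, went from 161, 181, and 154 CPM to 40.9, 34.7, and 54.4 CPM (-1.93 ± 0.26, adjusted p = 0.0157). The helicase subunits MCM2, MCM3, MCM5, MCM6, and MCM7 fell, with log2 fold changes of -2.18, -1.55, -1.56, -1.53, and -1.71, and the sliding clamp PCNA changed by -2.0 ± 0.39 (adjusted p = 0.0355). The thymidylate synthase TYMS changed by -1.82 ± 0.26 (adjusted p = 0.0189). Without OA replicate 2, 34 members passed and the median was -1.55.

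Part of the histone genes transcribed in S phase also fell. Of 46 tested replication-dependent histone genes, 20 fell and none rose, and all 46 were below 0, with a median of -1.59. These mRNAs mostly end in a stem-loop without a poly(A) tail. The labels name a total RNA library kit, whereas the study speaks of mRNA-seq, so how far the levels of these mRNAs and of small noncoding RNAs depend on the library type is not known here. Their median level against the mean of the DMSO libraries was -2.41, -1.26, and -1.34 in OA replicates 1, 2, and 3, and -0.33, 0.24, and 0.09 in DMSO replicates 1, 2, and 3. OA replicate 1, not replicate 2, thus had the lowest histone levels. Of 28 genes of homologous recombination and the Fanconi pathway, 11 fell and none rose, with a median of -1.30. CLSPN, the checkpoint mediator claspin, was at 38.5, 27.6, and 35.1 CPM with DMSO and 7.45, 3.69, and 8.4 CPM with OA (-2.37 ± 0.36, adjusted p = 0.0219). The nuclease EXO1 and the polymerase POLQ changed by -2.33 ± 0.39 and -1.81 ± 0.28 (adjusted p = 0.0253 and 0.0221). Of 40 mitosis and G2/M genes, 9 fell and none rose, but 39 were below 0 and the median was -1.43. CDC25A, a phosphatase that activates cyclin-dependent kinases, went from 82.1, 102, and 87.9 CPM to 15.6, 22.1, and 31.5 CPM (-1.98 ± 0.31, adjusted p = 0.0219). The cyclin CCNA2 and the checkpoint kinase BUB1B changed by -2.04 ± 0.37 and -1.61 ± 0.30 (adjusted p = 0.0296 and 0.031). With an offset for GC content, which called 8.51% of all genes higher and 7.57% lower, 31 of the mitosis list, 20 of the repair list, and 38 of the histone list passed.

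Letters known from cell cycle promoters were counted in the same windows and on both strands. GCGGGAA, a form of the E2F site, was in 41 of 199 windows of called falls (20.6%), in 18 of 275 windows of called rises (6.55%), and in 10.4% of windows of tested genes that were not called, against 6.56% of all windows. TTTGAA, the core of the cell cycle homology region, was in 18.1%, 9.45%, and 9.25% of the same groups and in 15.4% of all windows. Of 34 windows of DNA replication genes, 14 held GCGGGAA and 1 held TTTGAA, and of 42 windows of histone genes, 6 held GCGGGAA and 15 held TTTGAA. TGACNNNGC, the core of the antioxidant response element, was in 16% of windows of called rises, 16.6% of called falls, 15.4% of tested genes that were not called, and 13.6% of all windows. It was in 4 of 20 windows of NRF2 targets. ACGTG, the core bound by hypoxia-inducible factors, was in 20.4% of windows of called rises, 27.6% of called falls, 27.1% of tested genes that were not called, and 21.6% of all windows.

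Protein folding, RNA processing, and translation gave different pictures. Of 24 cytosolic heat shock proteins, 4 fell and none rose, with a median of -0.96. Without OA replicate 2, 10 passed as lower, and with the GC offset 14, where 2.37% and 7.57% of all tested genes did. HSPA8, the constitutive HSP70, was at 6027, 6634, and 5599 CPM with DMSO and 2092, 1701, and 2927 CPM with OA (-1.44 ± 0.27, adjusted p = 0.0317), and HSPA1B, a near copy of HSPA1A whose reads could be shared, changed by -1.73 ± 0.26 (adjusted p = 0.0219). TCP1 and CCT2, subunits of the chaperonin that folds actin and tubulin, changed by -1.19 ± 0.24 and -1.23 ± 0.27 (adjusted p = 0.0358 and 0.0443). Of 58 splicing factors, 7 fell and none rose, 54 were below 0, and the median was -0.60. The SR proteins SRSF2, SRSF7, and SRSF3 changed by -1.32 ± 0.20, -1.37 ± 0.23, and -1.27 ± 0.22 (adjusted p = 0.0219, 0.027, and 0.0275; SRSF3 had adjusted p = 0.0818 with the GC offset), and for SRSF2 the OA libraries lay at 165, 178, and 179 CPM against 441, 431, and 435 CPM with DMSO. None of 82 cytosolic ribosomal protein genes passed, although 77 were above 0 and the median was 0.66 (0.36 in the fit without OA replicate 2). With the GC offset 6 passed as higher and 1 as lower, with scaling to total counts 4 passed as higher, and without replicate 2 of both groups 9 did. With a replicate block 45 passed as higher and 1 as lower, where 1713 and 2201 of all 14681 genes did. Among the 82 genes, RPL3 had the lowest p, with 1865, 2226, and 1941 CPM under DMSO and 2901, 4661, and 3852 CPM under OA (0.92 ± 0.25, adjusted p = 0.0775). EEF1A1, the elongation factor whose mRNA is regulated together with ribosomal protein mRNAs, was the only call among 51 translation factors and took 14154, 13980, and 12486 CPM with DMSO and 28964, 33836, and 29006 CPM with OA (1.18 ± 0.23, adjusted p = 0.0359), the median of these factors being -0.09. Of 39 MYC and ribosome biogenesis genes, 36 were below 0 (median -0.63), with UTP20 falling (-1.69 ± 0.36, adjusted p = 0.0429) and MXD1, an antagonist of MYC, rising (2.88 ± 0.60, adjusted p = 0.0396). None of 22 purine and pyrimidine synthesis enzymes passed, with a median of -0.75. The lowest p among them was that of UMPS (-0.9 ± 0.22, adjusted p = 0.0595). With the GC offset 9 of the 22 passed as lower, against 7.57% of all genes, and with a replicate block 11 did. Scaling to total counts gave 5 lower, and leaving out OA replicate 2 gave 3.

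Of the nuclear genes of mitochondria, the organelle that OA targets, most had fold changes below 0. The counts of called falls in these lists are to be read beside the 1.72% of all tested genes that fell. Of 51 complex I subunits and assembly factors, none passed, 39 were below 0, and the median was -0.33. NDUFB3 had the lowest p (-1.0 ± 0.24, adjusted p = 0.0543). With the offset for GC content 8 of the 51 passed as lower, against 7.57% of all genes. Leaving out OA replicate 2 gave 2 lower, and a replicate block gave 2 higher and 11 lower. Of 39 nuclear-encoded subunits of complexes II to V, ATP5MC3 fell, from 362, 424, and 344 CPM to 153, 192, and 209 CPM (-1.03 ± 0.23, adjusted p = 0.0467). Its product is subunit c of the ATP synthase, the ring to which oligomycin binds. With the offset for GC content, this change was -0.50 and did not pass (adjusted p = 0.46). The median of this list was -0.35. Of 78 mitochondrial ribosomal proteins, MRPL16 fell (-0.99 ± 0.23, adjusted p = 0.0495), with a median of -0.40. With the offset for GC content 11 of the 78 passed as lower. Of 30 genes of protein import, TIMM21 fell (-1.25 ± 0.28, adjusted p = 0.0471, or 0.0575 without OA replicate 2, median -0.22). Of 20 mitochondrial chaperones and proteases, HSPE1, the partner of the chaperonin HSP60, fell from 113, 116, and 107 CPM to 38.4, 27.5, and 36.2 CPM (-1.72 ± 0.24, adjusted p = 0.0168), and none rose (median -0.30). Neither the 22 regulators of mitochondrial biogenesis, DNA, and RNA (median -0.47, lowest p for MTERF2 with adjusted p = 0.145) nor the 17 genes of fission, fusion, and cristae (median -0.17, or 0.0019 without DMSO replicate 2, lowest p for MICOS10 with adjusted p = 0.297) had a called member. With a replicate block, 8 of the 22 and 3 of the 17 passed as lower, where 2201 of all 14681 genes did. That block also gave 23 lower mitochondrial ribosomal proteins and 9 lower subunits of complexes II to V. None of these 4 lists had a higher member with it. With the GC offset, 2 of the 22 and 0 of the 17 passed as lower.

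**Figure D3:**
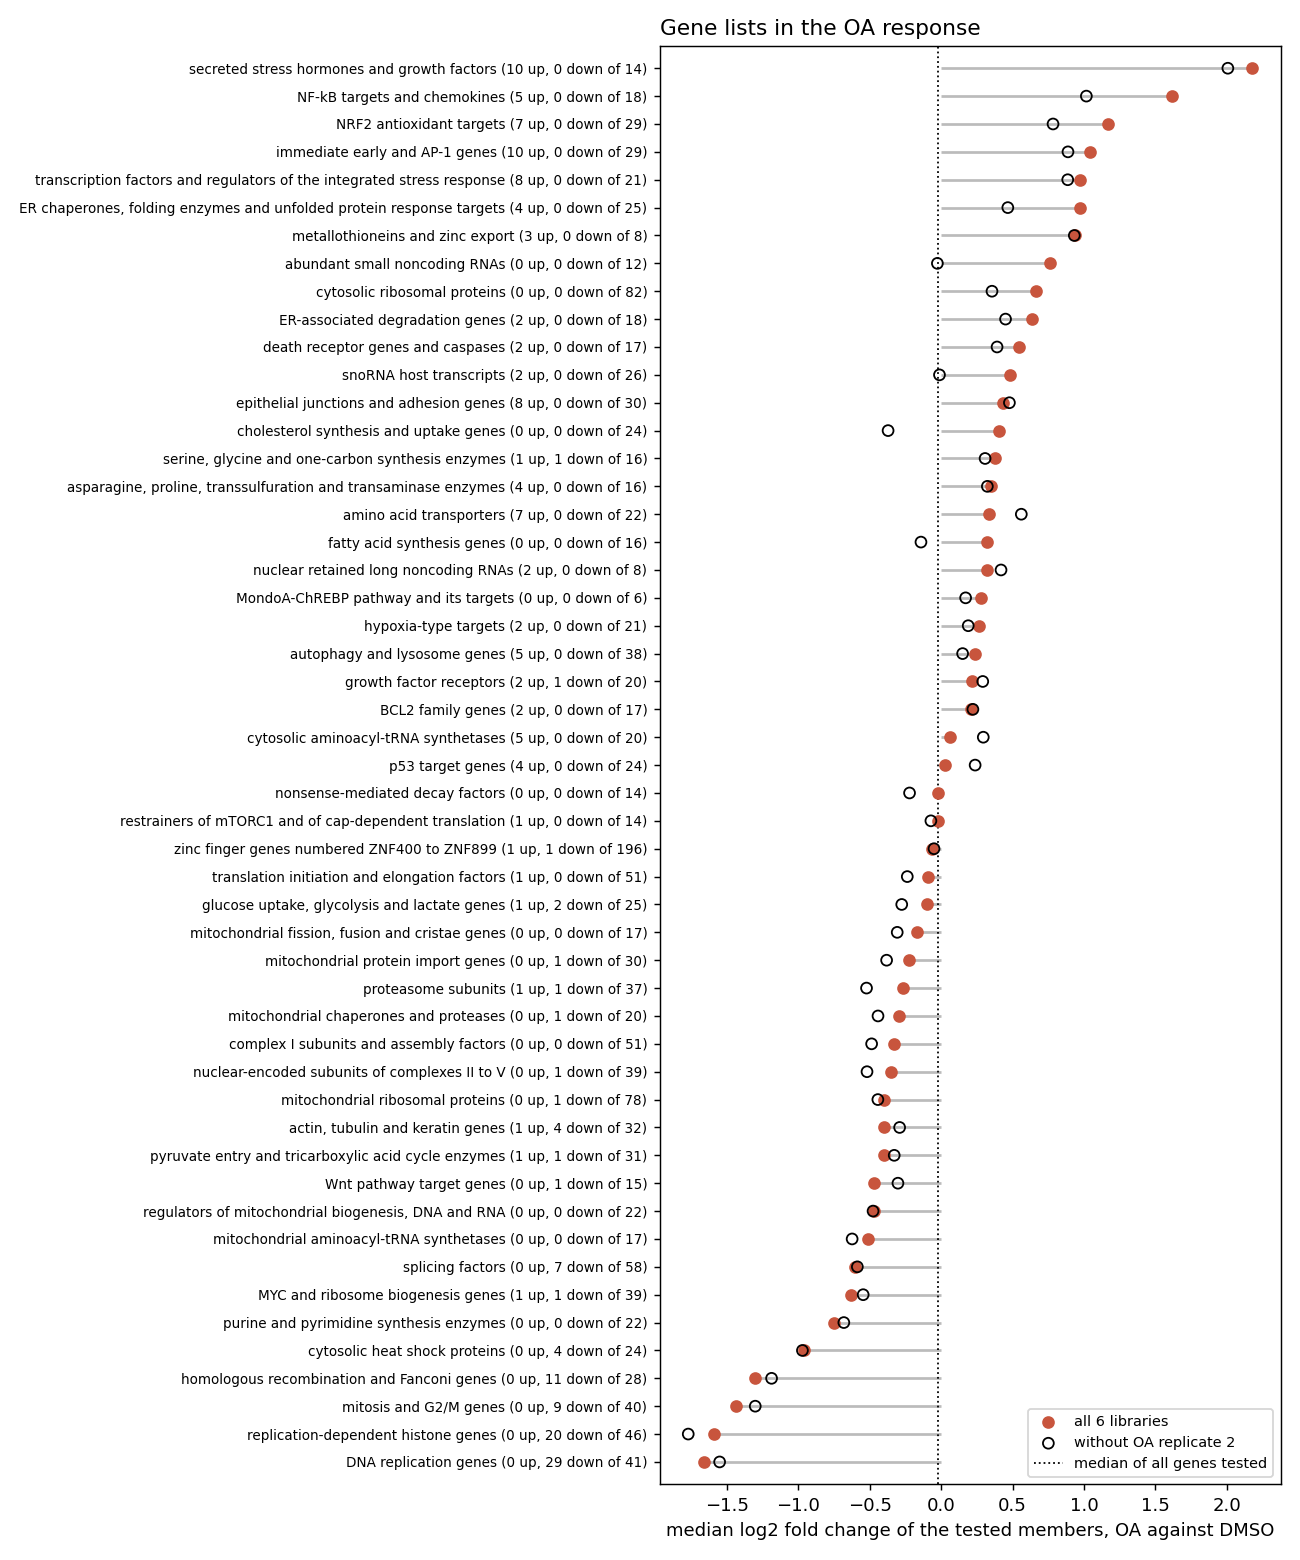
Median log2 fold change of the tested members of 51 gene lists with all 6 libraries (filled) and without OA replicate 2 (open), beside the median of all tested genes (dotted line). The medians run from -1.66 for DNA replication to 2.18 for secreted stress hormones, and the open circle crosses to the other side of 0 for cholesterol synthesis, fatty acid synthesis, snoRNA hosts, and small noncoding RNAs. Without replicate 2 of both groups, not drawn, the medians of these lists were 0.22, 0.33, 0.14, and 0.24.

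Among enzymes of energy metabolism, single genes passed the test in either direction. Of 31 enzymes of pyruvate entry and the tricarboxylic acid cycle, PCK2, a mitochondrial enzyme that makes phosphoenolpyruvate and a known ATF4 target, rose from 19.2, 29.2, and 28.2 CPM to 128, 183, and 169.6 CPM (2.65 ± 0.28, adjusted p = 0.0116), and FH, the fumarase, fell from 125, 128, and 115 CPM to 53, 59.8, and 61.4 CPM (-1.08 ± 0.21, adjusted p = 0.0365), with a median of -0.40. With the offset for GC content, the change of FH was -0.62 and did not pass (adjusted p = 0.253). Of 25 genes of glucose uptake, glycolysis, and lactate, the glucose transporter SLC2A3 rose, whereas LDHA and PGAM1 fell. LDHA, the lactate dehydrogenase, was at 709, 736, and 674 CPM with DMSO and 337, 260.1, and 350.3 CPM with OA (-1.16 ± 0.22, adjusted p = 0.0333), and PGAM1 changed by -1.14 ± 0.26 (adjusted p = 0.0477). The list had a median of -0.10, which was 0.01 without DMSO replicate 2 and 0.02 without OA replicate 1. Of 21 targets of the hypoxia type, only NDRG1 and VEGFA passed (3.2 ± 0.36 and 1.92 ± 0.26, adjusted p = 0.0116 and 0.0168), with a median of 0.27. None of 6 genes of the MondoA-ChREBP pathway passed, and ARRDC3 had the lowest p (1.01 ± 0.41, adjusted p = 0.195, list median 0.28, or 0.17 without OA replicate 2). None of 24 genes of cholesterol synthesis and uptake and none of 16 of fatty acid synthesis passed. Their medians of 0.40 and 0.32 became -0.37 and -0.14 without OA replicate 2, but 0.22 and 0.33 without replicate 2 of both groups. With a replicate block, 6 members of each list passed as higher, and 2 and 3 as lower. Of all 14681 genes, 1713 passed as higher and 2201 as lower with that block.

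The remaining lists differed in how many members passed. Of 26 snoRNA host transcripts, GAS5 and SNHG29 rose. GAS5, whose spliced RNA is removed by nonsense-mediated decay when translated, was at 364, 453, and 386 CPM with DMSO and 1110.4, 5026, and 1212 CPM with OA (2.61 ± 0.59, adjusted p = 0.0471), and SNHG29 rose by 1.51 ± 0.34 (adjusted p = 0.0467). The list median of 0.49 was -0.01 without OA replicate 2 and 0.14 without replicate 2 of both groups. None of 14 nonsense-mediated decay factors passed, with EIF4A3 the nearest (-0.7 ± 0.24, adjusted p = 0.126) and a median of -0.02 (-0.22 without OA replicate 2). None of 12 abundant small noncoding RNAs passed (lowest p for SCARNA7 with 1.12 ± 0.26 and adjusted p = 0.0532). Their median was 0.76, or -0.03 without OA replicate 2 and 0.24 without replicate 2 of both groups. With the GC offset 4 of the 12 passed as higher, against 8.51% of all genes. Of 8 long noncoding RNAs kept in the nucleus, MALAT1 and NEAT1 rose. MALAT1 went from 945, 449.6, and 765 CPM to 2489, 1986, and 2073 CPM (1.6 ± 0.31, adjusted p = 0.0348), and NEAT1 from 46.3, 22.2, and 62.3 CPM to 150.3, 165, and 137 CPM (1.79 ± 0.37, adjusted p = 0.0396). With scaling to total counts neither passed (adjusted p = 0.0753 and 0.0798). Among actin, tubulin, and keratin genes, 4 of 32 fell (the tubulins TUBB, TUBB4B, and TUBA1B and the tubulin-binding STMN1) and KRT80 rose. TUBB changed by -1.32 ± 0.26 and STMN1 by -1.35 ± 0.28 (adjusted p = 0.0365 and 0.0393, the latter 0.0676 with the GC offset), and the list median was -0.40. Of 37 genes in the proteasome list, the subunit PSMD1 fell (-1.16 ± 0.22, adjusted p = 0.033) and NFE2L1, the transcription factor of proteasome genes, rose (1.76 ± 0.34, adjusted p = 0.0331), with a median of -0.26. DKK1 was the only call among 15 Wnt targets (median -0.47). Of 196 zinc finger genes chosen by their ZNF symbols, ZNF697 rose (1.17 ± 0.24, adjusted p = 0.0373) and ZNF488, below 10 CPM, fell from 1.73, 2.57, and 1.63 CPM to 0.221, 0, and 0 CPM (-4.39 ± 0.88, adjusted p = 0.0369), with a median of -0.07.

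OA replicate 2 differed from OA replicates 1 and 3 in level by over 1 log2 unit in 28.5% of 8831 genes of at least 10 CPM, 778 of them higher (8.81%) and 1735 lower (19.6%). Since 1 library was set against 2, these differences have no test. By the same measure, 20.4% of the genes set OA replicate 1 apart from the other OA libraries and 1.99% set OA replicate 3 apart. Among the DMSO libraries the shares were 5.79%, 8.56%, and 0.0793% for replicates 1, 2, and 3. The share was the largest for OA replicate 2 in this experiment, followed by that of OA replicate 1. Among the called genes of at least 10 CPM, OA replicate 2 was the highest OA library for 213 of 269 rises and the lowest for 98 of 201 falls, where over all 8831 genes it was the highest for 3964 and the lowest for 3682. It took part in those calls, so the response was also read in it from calls that did not use it. Of 484 genes that rose in the fit without it, 458 (94.6%) lay above all 3 DMSO libraries in OA replicate 2, against 40.3% of all tested genes. Of 365 that fell, 353 (96.7%) lay below all 3, against 42.0% of all tested genes. The same DMSO libraries served in both steps. The median change of these rises was 2.13 in OA replicate 2 and 1.53 in the mean of the other OA libraries, and that of the falls was -1.78 and -1.46 (log2 level minus the mean of the DMSO libraries).

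Of the genes highest in OA replicate 2, LCN2, UPP1, CYP4F3, and CYP4F11 were also among the largest rises named above. OA replicate 2 entered the fold changes and the mean level behind that ranking, so this overlap is partly built in. Without that library, their log2 fold changes were 3.77, 3.50, 3.10, and 2.40, against 6.34, 5.36, 4.85, and 4.22 with it. FGFBP1, a carrier of fibroblast growth factors, was at 1.77, 43.7, and 1.24 CPM in OA replicates 1, 2, and 3 and at 1.63, 16.5, and 2.7 CPM in DMSO replicates 1, 2, and 3, so that replicate 2 was the highest in both groups. LCN2 had the same pattern, with replicate 2 above the mean of the others by 3.95 log2 units with OA and by 2.37 with DMSO. MGLL, a lipase of monoacylglycerols, differed by 3.18 with OA and by 1.77 with DMSO. For HMOX1 the difference was 3.73 with OA but 0.28 with DMSO. For UPP1, CYP4F11, CYP4F3, and SFN (14-3-3σ, a cell cycle inhibitor), it was 3.14, 3.09, 2.99, and 2.98 with OA and 0.81, 0.53, -0.17, and 0.94 with DMSO. FTL, the ferritin light chain, alone took 1.32% of the counts of OA replicate 2 and 0.174% to 0.435% of those of the other 5 libraries.

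At the low end of OA replicate 2, transcripts that the other libraries held at a moderate level were almost lost. PROS1, the anticoagulant protein S, had 31.7, 0.599, and 16.5 CPM (430, 6, and 159 counts) in OA replicates 1, 2, and 3 and 21, 7.78, and 17.6 CPM with DMSO. SCG2, a secretory granule protein, had 22.3, 0.898, and 19.4 CPM with OA and 9.81, 6.56, and 8.03 CPM with DMSO. PDE4B, a cyclic AMP phosphodiesterase, had 87.8, 6.19, and 102 CPM with OA and 186, 127, and 183 CPM with DMSO. The glutamate transporters SLC1A1 and SLC1A3 were at 22.5, 0.698, and 10.4 CPM and 37.2, 2.2, and 40.2 CPM with OA. CETN3, WNT16, and CCDC125 were lower in OA replicate 2 than in the mean of the others, with log2 differences of -4.29, -4.06, and -3.92. Among the DMSO libraries the difference of replicate 2 was between -1.50 (SLC1A1) and -0.09 (WNT16) for these 8 genes. None of these 8 genes was called with OA in the fit of all 6 libraries, and without OA replicate 2 SCG2 passed (1.37, adjusted p = 0.0304).

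**Figure D4:**
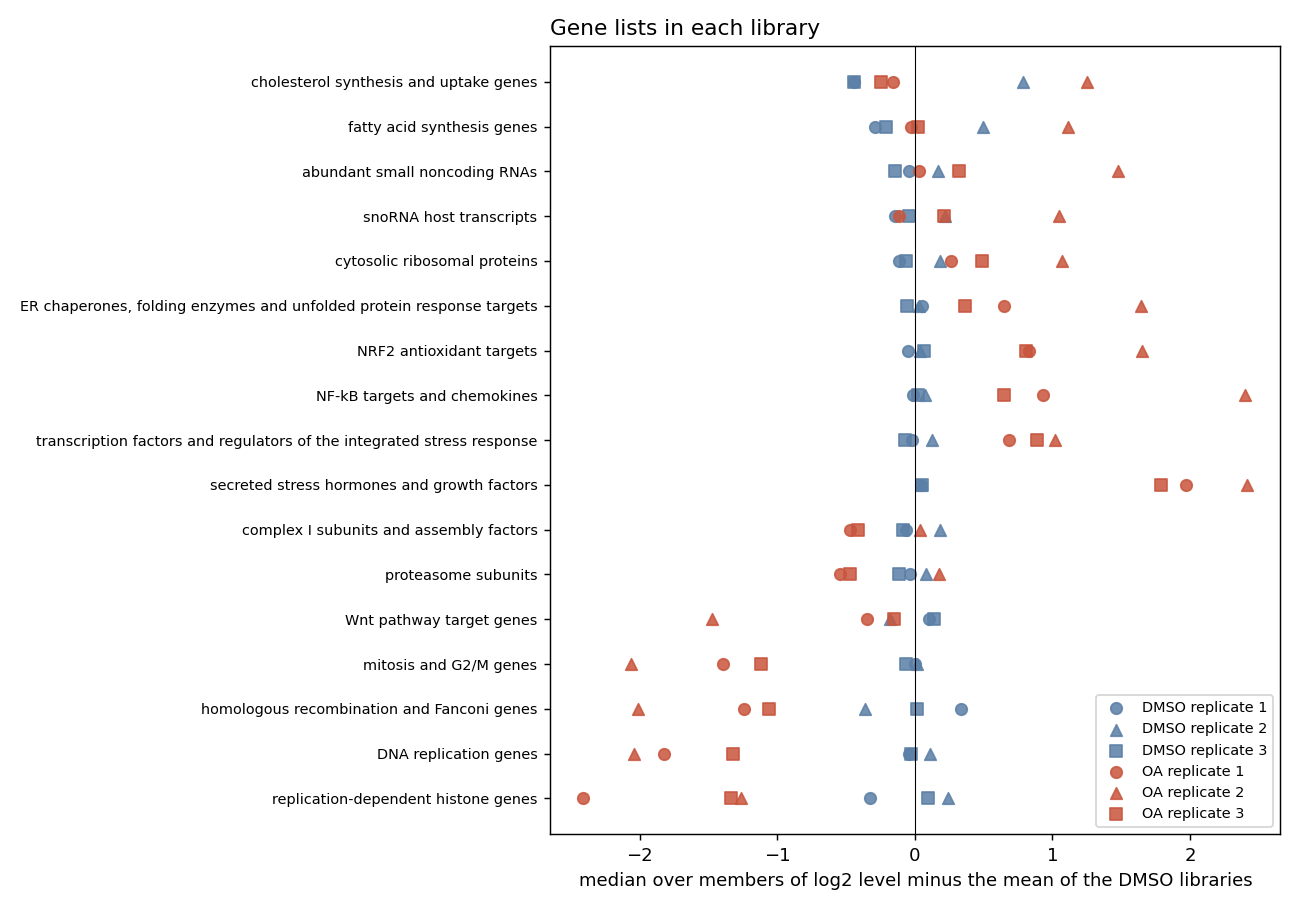
Median over the members of 17 gene lists of the log2 level minus the mean of the DMSO libraries, with 1 symbol for each library (blue, DMSO; red, OA). The triangles of replicate 2 lie to the right in both colors for cholesterol synthesis (0.78 and 1.25), to the right in red but not in blue for the ER, NRF2, and NF-κB lists, and to the left in red for Wnt targets and mitosis.

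Gene lists separated the differences of OA replicate 2 into those that DMSO replicate 2 shared and those that it did not. For cholesterol synthesis and uptake, the median level against the DMSO mean was -0.16, 1.25, and -0.25 in OA replicates 1, 2, and 3 and -0.44, 0.78, and -0.44 in the DMSO replicates, so that both replicates numbered 2 were high. Fatty acid synthesis had -0.03, 1.11, and 0.02 with OA and -0.29, 0.49, and -0.21 with DMSO. For the ER list the medians were 0.65, 1.64, and 0.36 with OA and 0.05, 0.03, and -0.06 with DMSO, and for NRF2 targets 0.83, 1.65, and 0.81 and -0.05, 0.04, and 0.06. NF-κB targets and chemokines had 0.93, 2.40, and 0.65 with OA and -0.02, 0.07, and 0.03 with DMSO. In these 3 lists, the DMSO libraries were close together and OA replicate 2 was far above OA replicates 1 and 3. Ribosomal proteins had 0.26, 1.07, and 0.49 with OA and -0.11, 0.18, and -0.07 with DMSO, and OA replicate 2 was the highest OA library for 78 of 82. Small noncoding RNAs had 0.03, 1.48, and 0.32 with OA and -0.04, 0.17, and -0.15 with DMSO. SnoRNA hosts had -0.12, 1.05, and 0.21 with OA and -0.15, 0.22, and -0.04 with DMSO. In these 3 lists both replicates numbered 2 were the highest of their groups. Complex I genes had -0.47, 0.04, and -0.42 with OA and -0.06, 0.18, and -0.09 with DMSO, and proteasome genes -0.55, 0.17, and -0.47 and -0.04, 0.08, and -0.11, so that the lower levels with OA were seen in replicates 1 and 3. In the other direction, mitosis genes had -1.39, -2.07, and -1.12 with OA and -0.00, 0.02, and -0.07 with DMSO. Repair genes had -1.24, -2.01, and -1.06 with OA and 0.33, -0.36, and 0.02 with DMSO, and Wnt targets -0.35, -1.48, and -0.15 and 0.10, -0.18, and 0.14, so that in these 2 lists DMSO replicate 2 was also the lowest of its group. Leaving out OA replicate 2 moved the list medians of amino acid transporters to 0.56, of autophagy genes to 0.15, of p53 targets to 0.24, of Wnt targets to -0.30, of protein import genes to -0.38, of fission and fusion genes to -0.31, of glycolysis genes to -0.28, of translation factors to -0.24, and of proteasome genes to -0.52. The rises of PPP1R15A, ATF3, LAMB3, OSGIN1, HERPUD1, WARS1, and GAS5 were 2.01, 2.29, 1.96, 1.90, 1.40, 1.21, and 1.53 without it, and each still passed, whereas HRK and GPT2 did not (adjusted p = 0.060 and 0.0547). The ISR factors (0.68, 1.02, and 0.89), hormones (1.97, 2.42, and 1.79), and replication genes (-1.83, -2.04, and -1.33) lay on the same side of 0 in all 3 OA libraries, well beyond the DMSO libraries, whose medians for these lists were between -0.07 and 0.13.

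Base composition and length went with the difference of OA replicate 2. The genes over 1 log2 unit higher had a median GC content of 54.9% and a median length of 2624 bases in their longest annotated transcript, and those lower had 39.9% and 4885 bases, against 47.6% and 3958 bases over all 8831 genes. Across these genes, the difference of OA replicate 2 and GC content had a Spearman coefficient of 0.62, given as a description because genes are not independent and share the library. The difference of OA replicate 2 and that of DMSO replicate 2 had a Pearson coefficient of 0.74 across the same genes. They come from separate libraries that share a replicate number. Of the 1735 genes low in OA replicate 2, 537.00 were also over 1 log2 unit low in DMSO replicate 2, and of the 778 high, 37 were also over 1 log2 unit high in it. When the difference among the DMSO libraries was subtracted, 383 genes remained over 1 log2 unit higher and 718.00 lower in OA replicate 2. GC content also went with the deviation of other libraries from their group mean (Spearman coefficients of -0.74, 0.67, and -0.09 for DMSO replicates 1, 2, and 3 and of -0.66, 0.54, and 0.04 for the OA replicates). With an offset for GC content, chosen after seeing the data, OA replicate 2 differed by over 1 log2 unit in 1362 of the 8831 genes, against 2513 without it. The part of base composition in the differences between libraries was not tested further.

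**Figure D5:**
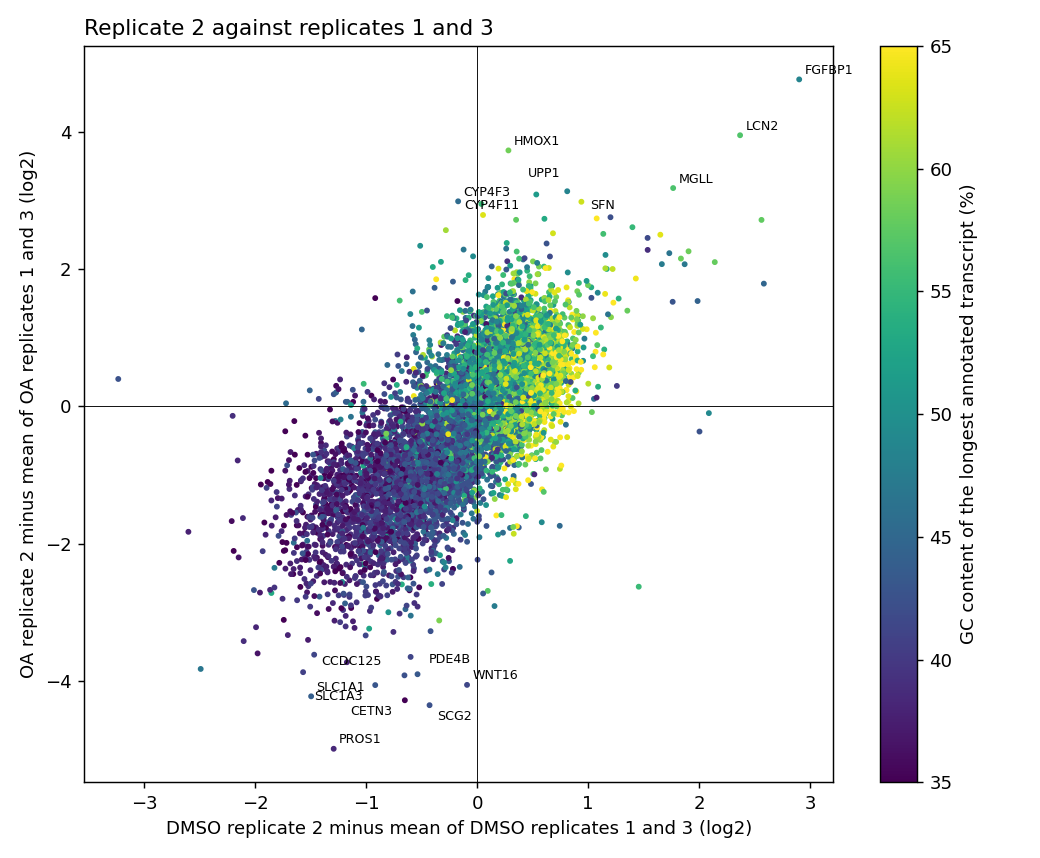
Difference of replicate 2 from the mean of replicates 1 and 3 in log2 level, with DMSO on the horizontal and OA on the vertical axis, for 8831 genes colored by the GC content of the longest annotated transcript. Points of low GC content lie at the lower left and points of high GC content at the upper right, and HMOX1 and CYP4F3 lie high with OA but near 0 with DMSO.

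To ask whether the response to OA differed from that to TN, a contrast between both changes, each against its own DMSO cultures, was taken from 1 fit of the 12 libraries. Of 15429 genes tested, 0 passed the adjusted threshold of 0.05 in edgeR or in DESeq2, and 348 had an unadjusted p under 0.05 in edgeR, so the test left the 2 responses undistinguished at the level of single genes and does not show that they were alike. Without OA replicate 2, 4 genes passed, all of the ER and all with a smaller change with OA. They were the calcium-binding chaperone CALR, with a difference of -2.36 ± 0.24 (adjusted p = 0.0138), CRELD2 with -2.56 ± 0.33 (0.0367), the secreted factor MANF with -2.01 ± 0.24 (0.0311), and the disulfide isomerase PDIA4 with -2.03 ± 0.26 (0.0367). These 4 were named after their values were seen. With all libraries, their differences were -1.68, -1.69, -1.07, and -1.68.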

How the data were processed

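RNA of OA-treated and DMSO-treated HCT116 cells was sequenced with a stranded total RNA kit per the labels. According to the methods of the study, the authors aligned reads with STAR to hg38 with a Gencode annotation and deposited gene counts, and DESeq2 is named in the submitters' processing notes. Which strand column was counted is not given in the sources used here. The deposited counts of 60708 genes were used as they are. The deposited tables of the authors' fold changes and p-values were not used. The members and gene lists were chosen with earlier results of these data known.

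In edgeR 4.0.16 (R 4.3.3), genes were kept by filterByExpr, normalized by TMM, and compared by the two-sided quasi-likelihood F test, with p-values adjusted by the Benjamini-Hochberg method and a threshold of 0.05. Levels are counts per 1000000 after scaling (CPM), and log2 levels used a prior count of 2. The floor of 10 CPM was applied to the mean over the 6 libraries. Errors (SE) were derived from the test, as the size of the log2 fold change over the square root of the quasi-likelihood F. The main fit had 3 libraries a group. The change with OA minus that with TN was a contrast in 1 fit of all 12 libraries. Named genes were the 10 largest rises and 10 largest falls among called genes of at least 10 CPM without overlap between groups, up to 3 called genes of lowest p in each of 51 lists (or the gene of lowest p where none was called), and the 8 genes highest and 8 lowest in OA replicate 2; further called members are named beside them. Lists were described by counts and medians, without a set test. Coordinates, GC content, and transcript lengths came from a later Gencode release on hg38, in which 60463 genes were found. Promoter windows came from RefSeq (GRCh38.p14). Python 3.11.15 and DESeq2 1.42.0 (an alternative fit) were also used. The fits were tested on simulated counts. No pair of libraries in a group agreed within sampling noise. Alternatives were another scaling, filters, DESeq2, an offset for GC content, a replicate term, 1 fit of all libraries, and leaving out each library.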

Additional observations from a re-analysis of the deposited data

How the results depend on the processing

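Compared with 405 genes higher and 253 lower, DESeq2 gave 959 and 683, testing without a filter on low counts 888 and 684, 1 fit of all 12 libraries 893 and 788, and an offset for GC content 1249 and 1112. Scaling to total counts gave 352 and 396, with a shift of the median of all genes to -0.23. DESeq2 size factors in edgeR (422 and 250), at least 10 counts in every library (415 and 264), and scaling without small noncoding RNAs (405 and 253) kept both counts within 1.5 times. Leaving out 1 library gave between 3 and 730 higher and between 0 and 449 lower genes, with the lowest counts when a DMSO library was left out. Without replicate 2 of both groups, an alternative chosen after seeing the data, there were 461 and 336. The cause of these changes was not tested. Of the 658 called genes, 655 were also called by DESeq2, 643 with the GC offset, 604 without OA replicate 2, and 521 with scaling to total counts. DESeq2 gave no result for LCN2, UPP1, and CYP4F11, which are among the 10 largest rises. Deviations of OA and DMSO libraries of the same number from their group means correlated across genes by 0.62, 0.54, and 0.09 for replicates 1, 2, and 3. For each OA library, this was its highest correlation with a DMSO library. The labels state no pairing, and the main fit, like that of the study, held no replicate term. Genes given above as not passing are those of that fit unless another is named. What same-numbered libraries shared was not tested. With a replicate block, 1713 genes were higher and 2201 lower, all 658 among them, and the median of the cytosolic aminoacyl-tRNA synthetases was -0.04. DMSO replicate 3 correlated best with OA replicate 1 (0.15) rather than with its own number. The count of genes that differ between OA and TN was 0 with all alternatives run, the replicate block included, except 4 without OA replicate 2. The 2513 genes by which OA replicate 2 differed from OA replicates 1 and 3 became 1411 of 5159 genes at a floor of 30 CPM, 1101 after subtracting the difference among DMSO libraries, and 1362 with the GC offset, the last 2 chosen after seeing the data. They were 3069 with total counts, 2518 with DESeq2 size factors, and 2531 with a prior count of 0.5. Of the 111 called genes that the naming rule gave, none reversed its direction in the alternatives run, 15 lost the call with scaling to total counts, and 4 (ATP5MC3, FH, SRSF3, and STMN1) lost it with the GC offset. The 15 were LCN2, PHGDH, ITGB4, ESRP1, MALAT1, NEAT1, and ZNF697 among the rises. Among the falls they were ERCC6L, DKK1, TIMM21, CCNA2, BUB1B, UTP20, FGFR3, and STMN1. Without DMSO replicates 1, 2, or 3, 107, 109, and 109 of the 111 lost it, and without OA replicates 1, 2, or 3, 5, 2, and 80 did. Of genes named as not called, MARS2, NDUFB3, RPL3, UMPS, and SCARNA7 passed in 6, 7, 8, 6, and 10 of 16 alternatives. The medians of BCL2 family genes and p53 targets were -0.04 and -0.15 with scaling to total counts. The median of nuclear noncoding RNAs was -0.03 without OA replicate 1, and that of zinc finger genes 0.06 without DMSO replicate 1 and 0.05 with the GC offset. Depth limits low transcripts most in OA replicate 3, the shallowest library with 9884124 counts.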
